A study of Rattus norvegicus with 8 samples.

Results

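The 5 genes of glucose uptake and glycolysis followed here by RNA sequencing in rat cardiac cells were Slc2a1, Hk2, Gapdh, Pkm and Ldha. They were taken as the 5 Ensembl IDs ENSRNOG00000007284 (Slc2a1), ENSRNOG00000006116 (Hk2), ENSRNOG00000018630 (Gapdh), ENSRNOG00000011329 (Pkm) and ENSRNOG00000013009 (Ldha) among the 21867 genes of the estimated count table, and all 5 passed the filter on low counts that 13849 genes passed. Expression was compared over 8 libraries in 4 groups of 2. Neonatal cardiac fibroblasts (CFs) were the starting cells and were grown in high-glucose medium with 10% FBS. Untreated myofibroblasts (MFs) were derived from CFs by repeated passaging in low-serum medium. The 2 treated groups were MFs exposed to direct current of 1 µA/cm2 or 2 µA/cm2 (1 µA and 2 µA below) for 72 h in medium with 10% FBS. Which medium the untreated MFs were kept in over those 72 h is not given in the sources used here, so serum and current cannot be told apart in the comparisons with MFs. The labels name no genetic change in any group. They call the 2 libraries of a group biological replicates without saying whether the cells came from separate isolations, so the p-values measure the spread between these libraries, which may be technical.

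Glucose enters fibroblasts mainly through the facilitative transporter GLUT1, the product of Slc2a1. Hexokinase 2 (Hk2) traps it in the cell as glucose 6-phosphate, glyceraldehyde 3-phosphate dehydrogenase (Gapdh) carries out the oxidation step that yields NADH, pyruvate kinase (Pkm) makes pyruvate and ATP in the last step, and lactate dehydrogenase A (Ldha) turns pyruvate into lactate while it restores NAD+. Activated fibroblasts are known for a high use of glucose, and Gapdh is also one of the reference genes of qPCR in this study.

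The 250 bases before the start of each gene are held in RefSeq's promoter table for assembly GRCr8, in which all 5 genes had an entry. The counts were made on the rn6 transcriptome, so these positions belong to another build. The windows of 4 genes are shown because 3 of them (Gapdh, Ldha and Pkm) had similar profiles across the MF and treated libraries while Slc2a1 did not share the difference after microcurrent. Capitals mark ACGTG or its reverse complement CACGT, 1 form of the core of the hypoxia response element. Other forms were not searched for. The windows lie at chr4:159652468-159652717 on the minus strand, chr1:106507842-106508091 on the plus strand, chr8:68953385-68953634 on the plus strand, and chr5:138002272-138002521 on the plus strand, and each is written 5′ to 3′ in the direction of the gene.
Gapdh: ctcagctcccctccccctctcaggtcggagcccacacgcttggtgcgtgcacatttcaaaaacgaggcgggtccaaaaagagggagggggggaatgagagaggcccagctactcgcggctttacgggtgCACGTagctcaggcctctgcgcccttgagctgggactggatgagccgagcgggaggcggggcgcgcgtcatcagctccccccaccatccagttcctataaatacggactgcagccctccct
Ldha: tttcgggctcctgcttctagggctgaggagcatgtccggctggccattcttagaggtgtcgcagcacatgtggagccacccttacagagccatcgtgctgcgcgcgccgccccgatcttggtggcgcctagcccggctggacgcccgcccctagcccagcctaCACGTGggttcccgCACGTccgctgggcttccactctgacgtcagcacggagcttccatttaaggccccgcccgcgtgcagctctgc
Pkm: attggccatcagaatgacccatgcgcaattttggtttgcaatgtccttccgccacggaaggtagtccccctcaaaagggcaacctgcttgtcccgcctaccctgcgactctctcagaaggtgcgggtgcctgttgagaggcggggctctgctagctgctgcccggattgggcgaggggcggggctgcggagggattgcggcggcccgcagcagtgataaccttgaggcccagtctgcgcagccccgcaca
Slc2a1: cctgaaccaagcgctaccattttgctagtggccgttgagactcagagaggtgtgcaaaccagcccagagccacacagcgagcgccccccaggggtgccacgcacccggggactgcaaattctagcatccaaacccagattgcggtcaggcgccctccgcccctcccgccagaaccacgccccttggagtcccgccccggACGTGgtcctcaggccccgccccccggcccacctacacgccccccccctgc
Both strands were searched for ACGTG, for CACGTG (an E-box, which holds ACGTG on both strands), for GGGCGG (a GC box) and for TATAAA. The form ACGTG was found once in Gapdh, beginning 121 bases before the start, and once in Slc2a1, beginning 51 bases before it. Ldha held 3 matches, of which 2 were the strands of 1 CACGTG that began 87 bases before the start, and Pkm and Hk2 held 0. Of 33469 windows of the same length in the table, 16.6% held ACGTG, 5.6% CACGTG, 30.5% GGGCGG and 12.9% TATAAA. GC boxes numbered 3 in Ldha, 3 in Slc2a1 and 1 in Pkm, and TATAAA was found only in Gapdh, 26 bases before the start. Hk2 held none of the 4 motifs, and its window had a GC content of 49.6%, against 63.2% to 68.4% in the other 4 genes. These matches describe the sequences and say nothing about binding.

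The estimated counts per library summed to between 26473085 and 37903701, and each gene was covered by at least 907 of them in every library. Levels below are CPM, the counts of a gene scaled to library size with TMM factors. They are compared between groups for 1 gene at a time, since lengths differ between genes. With 2 libraries per group, the libraries of groups can fail to overlap without a difference. How many of all genes did so was not counted, so overlap is given only as a description. Differences were tested with the quasi-likelihood test of edgeR, fitted to all 13849 genes, and a gene is said to pass at a Benjamini-Hochberg adjusted p below 0.05. The study's call also asks for a 2-fold difference, or 1 on the log2 scale. By that call 0 of the 5 genes changed in any of the 7 comparisons made, and DESeq2 called 0 as well. Over all genes tested that call was met by 10.4% between MFs and CFs, 3.92% at 1 µA and 4.62% at 2 µA against MFs, 6.76% for both densities together against MFs, 6.51% at 1 µA and 5.02% at 2 µA against CFs, and 0.00722% between the densities. At an unadjusted p below 0.05 edgeR gave 3 of the 5 genes between MFs and CFs, beside 35.5% of all genes tested. It gave 4 at 1 µA (26.3% of all), 3 at 2 µA (27.5%) and 4 for both densities together (32.5%) against MFs. Against CFs it gave 4 at 1 µA (26.7%) and 3 at 2 µA (23.8%), and between the densities 0 (0.520%). With all 8 libraries in the fit, the differences of the 5 genes lay between -0.52 and 0.94 on the log2 scale.

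**Figure D1:**
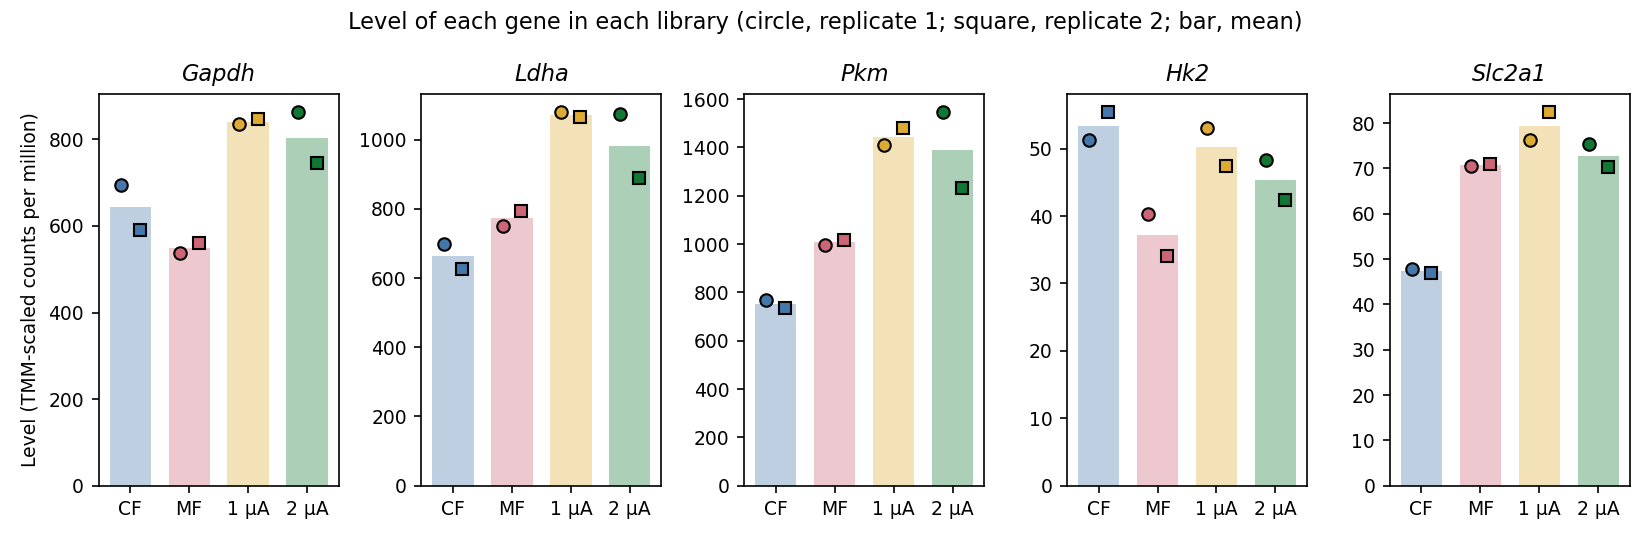
Level of each gene (vertical axis, CPM with TMM scaling, starting at 0) in the 2 libraries of CFs, MFs and cells treated with 1 µA or 2 µA. Circles are replicate 1, squares replicate 2 and bars group means; for Slc2a1 the MF and treated libraries lie from 70.3 to 82.4 and the CF libraries at 46.9 and 47.9, whereas Gapdh has its lowest libraries in MFs, at 538 and 561.

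The RNA of Slc2a1 and Hk2, genes of the first steps of glucose use, differed in opposite directions between myofibroblasts and cardiac fibroblasts. Slc2a1 rose 1.49-fold in MFs and Hk2 fell to 0.697 of its CF level. Pkm, Ldha and Gapdh did not pass the test. Thus 2 of the 5 genes passed, where 18.5% of all genes tested did. Both passes were lost in some of the fits given below, that of Hk2 in more of them. Passaging and low serum, by which MFs were derived, cannot be told apart from the cell state in this comparison. In bulk RNA, a change in every cell and a change in the share of cells that express a gene cannot be told apart.

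Slc2a1 was at 47.9 and 46.9 CPM in the CF libraries and at 70.6 and 70.95 CPM in the MF libraries. The groups were far apart and each was tight, at 47.4 ± 0.664 (SD, n = 2) and 70.8 ± 0.233 (SD, n = 2). The log2 fold change was 0.58 ± 0.0905 (SE; 95% interval 0.36 to 0.79), with an adjusted p of 0.00924 from edgeR. The pass was lost without MF replicate 1 (adjusted p = 0.0767) or MF replicate 2 (adjusted p = 0.0727), with the fold change at 0.58 in both.

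Hk2 was at 51.3 and 55.4 CPM in CFs and at 40.3 and 34.1 CPM in MFs. Both MF libraries were thus below both CF libraries. The log2 fold change was -0.52 ± 0.128 (SE; 95% interval -0.82 to -0.22), with an adjusted p of 0.0343 from edgeR. This pass was lost without CF replicate 1 (adjusted p = 0.0699), CF replicate 2 (0.0666), MF replicate 1 (0.102), MF replicate 2 (0.191), 1 µA replicate 1 (0.0611) or 1 µA replicate 2 (0.0641), and with only CFs and MFs in the fit (0.0702), with fold changes from -0.64 to -0.41. Scaled to Gapdh, Hk2 was at -0.31 (adjusted p = 0.262).

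The 3 later enzymes did not pass. Pkm was at 768 and 734 CPM in CFs and at 997 and 1019 CPM in MFs, without overlap. Its log2 fold change of 0.42 ± 0.145 (SE; 95% interval 0.08 to 0.77) had an adjusted p of 0.0852 from edgeR. Ldha was at 699 and 627 CPM in CFs and at 752 and 793 CPM in MFs, a log2 fold change of 0.22 (95% interval -0.11 to 0.55). Gapdh was at 694 and 591 CPM in CFs and at 538 and 561 CPM in MFs, a log2 fold change of -0.23 (95% interval -0.55 to 0.10). For each of these 3 genes the libraries of the groups did not overlap, yet the adjusted p of Ldha was 0.306 and that of Gapdh 0.281 in the same edgeR test. Pkm passed under DESeq2 (adjusted p = 0.0235), out of a range from 0.0235 to 0.278 over the other settings, and when scaled to Gapdh (0.0325).

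Treated cells were set against untreated MFs, a comparison in which serum and current cannot be told apart. Gapdh and Pkm passed, at 1.496-fold and 1.405-fold the MF level in the mean of both treated groups under TMM scaling. Scaled to Gapdh, Pkm turned to a log2 fold change of -0.09. Ldha and Hk2 were higher in all 4 treated libraries than in both MF libraries but did not pass the test, and Slc2a1 was close to its MF level. The 2 passes stood beside 15.0% of all genes tested. At 1 µA alone Gapdh passed, 1 of 5 genes beside 6.99% of all genes, and at 2 µA alone 0 of 5 passed beside 7.92%. At 1 µA, 3 genes passed under DESeq2 (Gapdh, Pkm and Ldha) and 4 with only 1 µA and MFs in the fit (Gapdh, Pkm, Ldha and Hk2), and at 2 µA 2 genes passed under DESeq2 (Gapdh and Pkm). More of all genes passed in those fits too, 1915 under DESeq2 and 3363 of 13474 with only 1 µA and MFs, against 968 of 13849 in the fit of all groups, and 2082 at 2 µA under DESeq2 against 1097. These comparisons share the MF libraries, so they are not independent of each other. Without an MF library or a 1 µA library, fewer of all genes passed in each of them and between MFs and CFs. Passes lost there were thus not particular to these 5 genes.

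Gapdh stood at 834 and 846 CPM at 1 µA and at 863 and 746 CPM at 2 µA, against 538 and 561 CPM in MFs. All 4 treated libraries were above both MF libraries. The log2 fold change of the treated mean was 0.58 ± 0.121 (SE; 95% interval 0.29 to 0.87), with an adjusted p of 0.0257 from edgeR. That pass was lost without MF replicate 1 (adjusted p = 0.220), MF replicate 2 (0.156), 1 µA replicate 1 (0.0666) or 1 µA replicate 2 (0.088), with fold changes from 0.55 to 0.61. At 1 µA the log2 fold change was 0.61 (adjusted p = 0.0466) and at 2 µA it was 0.55 (adjusted p = 0.0557). Among the left-out libraries, filters and tables, the pass at 1 µA was lost without MF replicate 1 (adjusted p = 0.282), MF replicate 2 (0.213), 1 µA replicate 1 (0.162) or 1 µA replicate 2 (0.249), with no filter (0.0513) and in the whole-number counts (0.0626). Gapdh passed at 2 µA without CF replicate 1 (0.0247) or 2 (0.0248), under DESeq2 (0.0035), under upper quartile scaling (0.0497) and with only 2 µA and MFs in the fit (0.048), out of a range from 0.0035 to 0.308.

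Pkm stood at 1409 and 1479.7 CPM at 1 µA and at 1546 and 1231 CPM at 2 µA, against 997 and 1019 CPM in MFs. Again no treated library overlapped with MFs. The log2 fold change of the treated mean was 0.49 ± 0.128 (SE; 95% interval 0.19 to 0.79), with an adjusted p of 0.0466 from edgeR. Among the left-out libraries, filters and tables, it did not pass without MF replicate 1 (adjusted p = 0.286), MF replicate 2 (0.227), 1 µA replicate 1 (0.0978), 1 µA replicate 2 (0.132) or 2 µA replicate 1 (0.0727), with no filter (0.0527), or in the whole-number counts (0.0529), with fold changes from 0.40 to 0.52 in these. At 1 µA and 2 µA alone the log2 fold changes were 0.52 (adjusted p = 0.0781) and 0.46 (adjusted p = 0.0954), and the DESeq2 values were 0.00925 and 0.023, out of ranges from 0.00925 to 0.349 and from 0.023 to 0.387.

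Ldha stood at 1079.6 and 1065 CPM at 1 µA and at 1075 and 888 CPM at 2 µA, against 752 and 793 CPM in MFs. The log2 fold change of the treated mean was 0.41 ± 0.123 (SE; 95% interval 0.12 to 0.70), with an adjusted p of 0.0678 from edgeR. The value passed without CF replicate 1 (adjusted p = 0.0425), CF replicate 2 (0.0429) or 2 µA replicate 2 (0.0476), under DESeq2 (0.0134) and with CFs left out of the fit (0.0436), and the alternatives ranged from 0.0134 to 0.364. Hk2 stood at 53.1 and 47.5 CPM at 1 µA and at 48.3 and 42.3 CPM at 2 µA, against 40.3 and 34.1 CPM in MFs. Its log2 fold change was 0.36 ± 0.112 (SE; 95% interval 0.09 to 0.62), with an adjusted p of 0.0749 from edgeR, which became 0.0483 in the whole-number counts and 0.0492 under upper quartile scaling (range 0.0483 to 0.382).

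Slc2a1, the transporter, had the smallest difference of the 5 genes in the main fit. It stood at 76.2 and 82.4 CPM at 1 µA and at 75.3 and 70.3 CPM at 2 µA, against 70.6 and 70.95 CPM in MFs. One 2 µA library was below both MF libraries and the other 3 treated libraries were above them. The log2 fold change of the treated mean was 0.10 (95% interval -0.08 to 0.29), so the upper bound of the interval was 1.22-fold, and the adjusted p was 0.404. Scaled to Gapdh the value turned to -0.48.

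**Figure D2:**
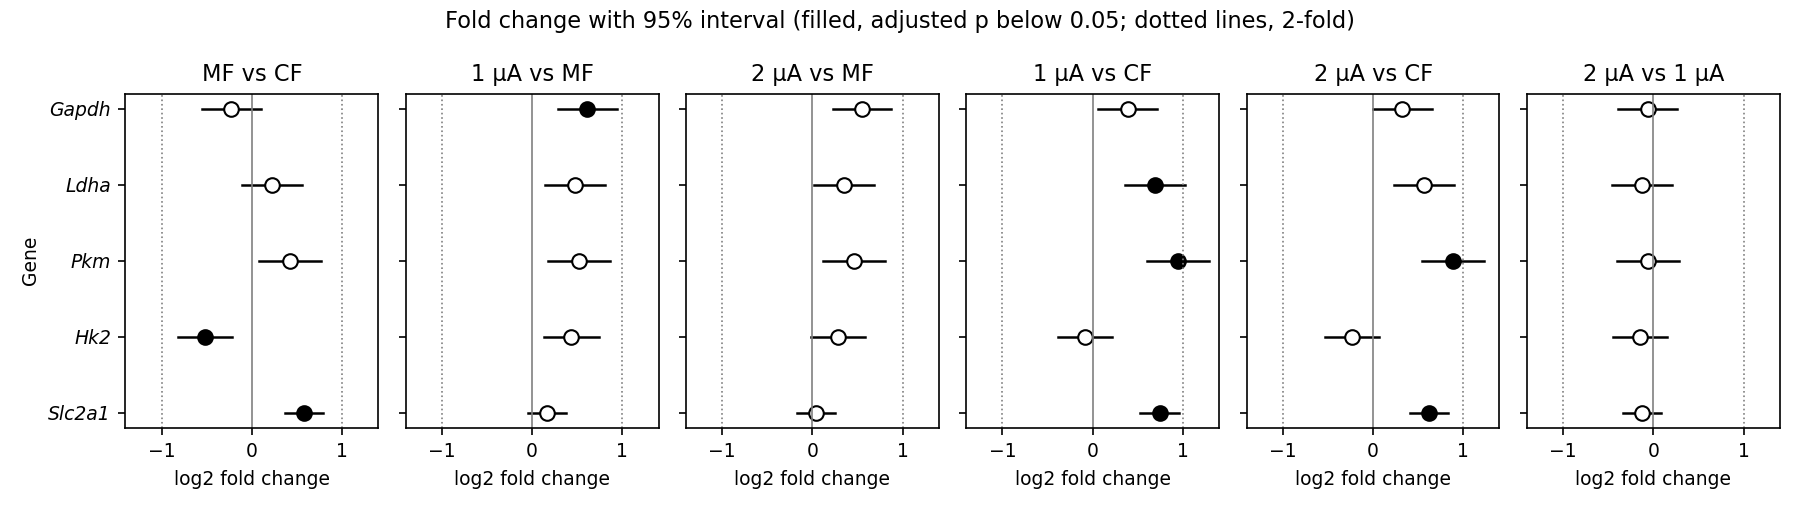
Log2 fold change (horizontal axis) of each gene in 6 comparisons of groups, with 95% intervals from the edgeR fit; filled points have an adjusted p below 0.05 and dotted lines mark 2-fold. Slc2a1 and Hk2 lie on opposite sides of 0 between MFs and CFs, at 0.58 and -0.52, and against MFs the 5 genes lie from 0.04 to 0.61 at both current densities under TMM scaling; scaled to Gapdh, the other 4 genes turn negative there.

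The median log2 fold change of the 5 genes was 0.47 at 1 µA and 0.35 at 2 µA against MFs, while that of all genes tested was 0 and 0.003. At 2 µA the median of the 5 was 0.20 without 2 µA replicate 1 and 0.48 without 2 µA replicate 2, and scaled to Gapdh the medians were -0.14 at 1 µA and -0.21 at 2 µA. All 5 genes were higher at each density under TMM scaling, as were 50% and 50.4% of all genes. Between 2 µA and 1 µA no gene of the 5 passed, beside 0.00722% of all genes. All 5 were lower at 2 µA, while 51.1% of all genes were higher there. Their log2 differences ran from -0.15 in Hk2 to -0.06 in Pkm and Gapdh. The intervals of these differences allow a fall to 0.728 of the 1 µA level or a rise of 1.15-fold for Ldha, 0.758 to 1.22 for Pkm, 0.765 to 1.198 for Gapdh, 0.732 to 1.11 for Hk2 and 0.792 to 1.06 for Slc2a1. The library 2 µA replicate 2 was the lowest of the 4 treated libraries for 5 of 5 genes, which was not counted over all genes. For Slc2a1 both 2 µA libraries were below both 1 µA libraries. Without 2 µA replicate 2 the log2 differences were 0.04 for Gapdh, 0.004 for Ldha and 0.10 for Pkm, with Hk2 at -0.06 and Slc2a1 at -0.07. In shares of all estimated counts, the 5 genes together took 0.295% in that library, 0.370% in 2 µA replicate 1 and 0.355% in each 1 µA library, against 0.237% and 0.249% in MFs and 0.225% and 0.197% in CFs.

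Treated cells were also set against CFs, the healthy starting cells. Pkm was 1.92-fold and 1.85-fold the CF level at 1 µA and 2 µA, and Slc2a1 was 1.67-fold and 1.54-fold. Both genes passed at both densities, and Ldha passed at 1 µA, where it was 1.62-fold the CF level. Under TMM scaling that made 3 of 5 genes at 1 µA beside 9.57% of all genes, and 2 of 5 at 2 µA beside 7.13%. Scaled to Gapdh, Pkm at 1 µA was the pass that remained of these (log2 fold change 0.55, adjusted p = 0.0352). Hk2 and Gapdh did not pass. In the main fit no gene passed against both CFs and MFs at the same density. Against MFs at 1 µA the adjusted p from edgeR was 0.0781 for Pkm, 0.0894 for Ldha and 0.298 for Slc2a1. At 2 µA it was 0.0954 for Pkm and 0.801 for Slc2a1.

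For Pkm the log2 fold changes against CFs were 0.94 ± 0.146 (SE; adjusted p = 0.013) at 1 µA and 0.89 ± 0.146 (SE; adjusted p = 0.018) at 2 µA. Its level was thus ordered CF, MF, then treated, and the libraries of neighbouring groups in that order did not overlap except between 1 µA and 2 µA. The pass at 1 µA was lost without 1 µA replicate 1 (adjusted p = 0.0838) or 1 µA replicate 2 (0.0792). At 2 µA it was lost without MF replicate 1 (0.0592), MF replicate 2 (0.0597) or 2 µA replicate 1 (0.0666) and with only 2 µA and CFs in the fit (0.149), and scaled to Gapdh the value was 0.55 (adjusted p = 0.052). Without 2 µA replicate 2 the log2 fold change of Pkm was 1.04 (adjusted p = 0.0154), past the study's fold threshold.

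For Slc2a1 the log2 fold changes against CFs were 0.74 (adjusted p = 0.00754) at 1 µA and 0.62 (adjusted p = 0.014) at 2 µA. The difference from CFs was thus measured in MFs and in both treated groups. The pass at 1 µA was lost without 1 µA replicate 1 (adjusted p = 0.0513) or 1 µA replicate 2 (0.0568), and that at 2 µA without 2 µA replicate 1 (0.0617) or with only 2 µA and CFs in the fit (0.130). Scaled to Gapdh, Slc2a1 was at 0.35 (adjusted p = 0.0776) at 1 µA and 0.29 (adjusted p = 0.143) at 2 µA. For Ldha the log2 fold change was 0.69 (adjusted p = 0.029) at 1 µA and 0.56 (adjusted p = 0.059) at 2 µA. The former did not pass without CF replicate 2 (adjusted p = 0.0517), MF replicate 1 (0.0768), MF replicate 2 (0.0769), 1 µA replicate 1 (0.154) or 1 µA replicate 2 (0.125), or with only 1 µA and CFs in the fit (0.0737), and scaled to Gapdh it was at 0.30 (adjusted p = 0.116). The latter passed without 2 µA replicate 2 (0.0482) and under DESeq2 (0.0022), out of a range from 0.0022 to 0.271.

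Hk2 and Gapdh were lowest in MFs, each with CF and treated libraries above both MF libraries. Against CFs, Hk2 had log2 fold changes of -0.09 (95% interval -0.39 to 0.21) at 1 µA and -0.24 (95% interval -0.54 to 0.06) at 2 µA. The libraries of CFs and 1 µA overlapped, as did those of 1 µA and 2 µA. Gapdh had log2 fold changes of 0.39 (95% interval 0.06 to 0.71) at 1 µA and 0.32 (95% interval -0.0005 to 0.65) at 2 µA, with adjusted p of 0.130 and 0.211 from edgeR. All 4 treated libraries of Gapdh were above both CF libraries.

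Because Gapdh differed between MFs and treated cells, the other genes were also expressed as log2 ratios to the Gapdh count of the same library, a quantity that no library scaling changes. Slc2a1 stood at -3.76 ± 0.143 (SD, n = 2) in CFs, -2.96 ± 0.0369 in MFs, -3.41 ± 0.0657 at 1 µA and -3.46 ± 0.0788 at 2 µA. Measured against Gapdh, Slc2a1 was therefore lower in treated cells than in MFs, by log2 differences of -0.45 and -0.51, whereas its CPM was not. The Pkm ratio stood at 0.88 ± 0.0202 in MFs, 0.78 ± 0.0352 at 1 µA and 0.78 ± 0.0836 at 2 µA, against 0.23 ± 0.118 in CFs. The Ldha ratio stood at 0.05 ± 0.0523 in CFs, 0.49 ± 0.0118 in MFs, 0.35 ± 0.0288 at 1 µA and 0.28 ± 0.0455 at 2 µA. The Hk2 ratio stood at -3.59 ± 0.242 in CFs, -3.89 ± 0.211 in MFs, -4.07 ± 0.129 at 1 µA and -4.15 ± 0.0137 at 2 µA. In an edgeR fit scaled to Gapdh, a choice made after seeing the data, Slc2a1 passed as lower in the treated mean than in MFs (log2 fold change -0.48, adjusted p = 0.0104), and Pkm, Ldha and Hk2 did not (adjusted p = 0.530, 0.223 and 0.212). That scaling moved the median of all genes tested by -0.58, so relative to the median gene Slc2a1 was not lower.

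**Figure D3:**
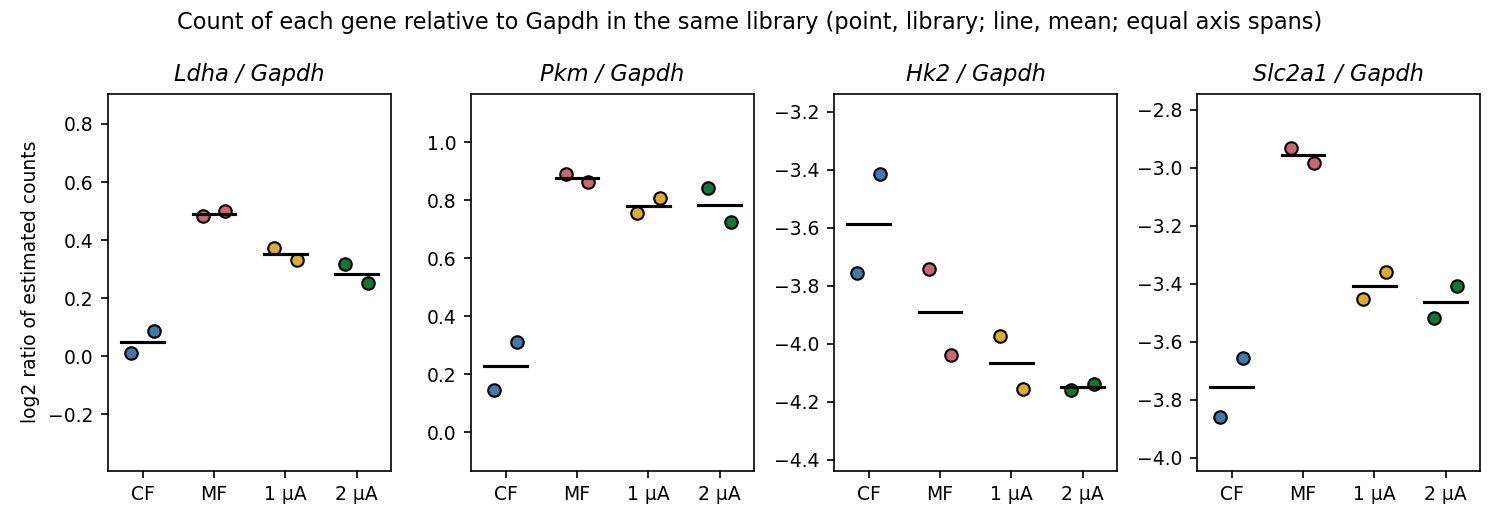
Log2 ratio of the estimated count of each gene to that of Gapdh in the same library (vertical axis, equal span in each panel) for CFs, MFs and cells treated with 1 µA or 2 µA; points are libraries and lines are group means. The Slc2a1 ratio is highest in MFs, at -2.96, and lower in the treated groups, at -3.41 and -3.46.

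Across the 6 MF and treated libraries, the variance stabilised (vst) values of Gapdh, Ldha and Pkm followed each other, with Pearson r of 0.973 for Gapdh and Ldha, 0.977 for Gapdh and Pkm, and 0.980 for Ldha and Pkm. With the CF libraries included, Ldha and Pkm remained at 0.979 over 8 libraries while Gapdh and Pkm came to 0.706. Hk2 had r of 0.841 to 0.860 with these 3 genes over the 6 libraries and of -0.08 to 0.48 over all 8. Slc2a1 and Pkm had an r of 0.907 over 8 libraries. These values describe libraries that fall into a few groups and share library composition. Of the other genes tested, the one most like Pkm was ENSRNOG00000056728 (r = 0.995 over 8 libraries) and the one most like Gapdh was ENSRNOG00000039496 (r = 0.993). On log2 CPM in place of vst values the gene most like Pkm was the same, but another gene was most like Gapdh (r = 0.997). Such values were not limited to the genes named. Of 13844 other genes, 118 had an r over 0.95 with Pkm and 78 with Gapdh, against 1 with Hk2.

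A separate table of whole-number counts, whose pipeline is not given in the sources used here, gave fold changes of the same sign for all 30 combinations of 5 genes and 6 pairwise comparisons. The largest difference between the tables was 0.13 on the log2 scale, for Hk2 at 2 µA against MFs. RefSeq's gene table lists 81 names of Gapdh pseudogenes, 30 of Ldha and 19 of Pkm, and 0 of Hk2 and Slc2a1. How reads shared with such copies were counted was not tested, so the levels of Gapdh, Ldha and Pkm are given as uncertain. The values of Pkm are sums over its transcripts and do not tell its isoforms apart.

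**Figure D4:**
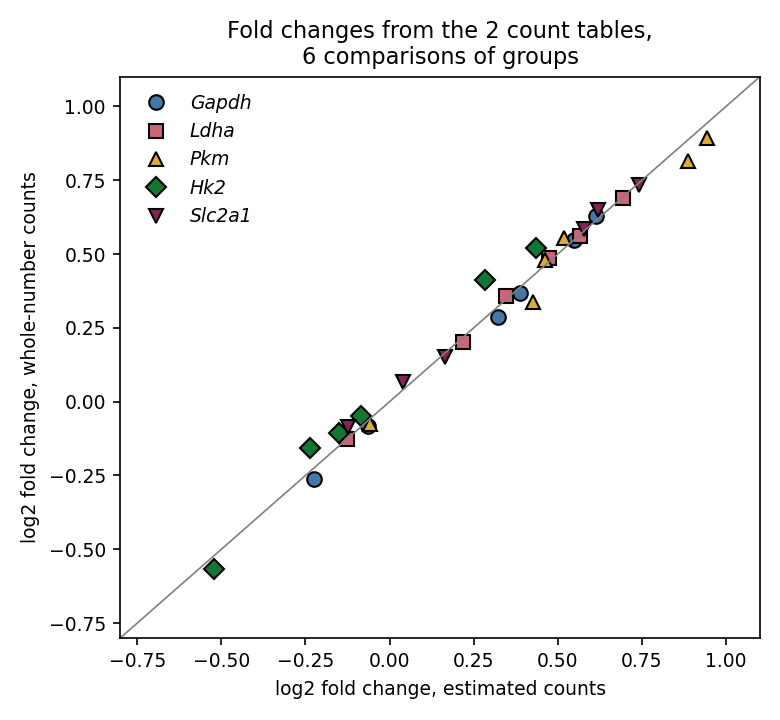
Log2 fold change from the estimated counts (horizontal axis) against that from the whole-number counts (vertical axis) for the 5 genes in 6 comparisons of groups, with the line of equality in grey. All 30 points have the same sign on both axes and lie within 0.13 of the line.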

How the data were processed

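RNA was sequenced from 8 libraries. Estimated counts, which the authors deposited, came from salmon run against the transcripts of rn6 and were summed to genes with tximeta. The authors also deposited these counts normalized with DESeq2 (a signal, here used only for transcript length offsets), vst values on a log2 scale, and a matrix of whole-number counts whose pipeline is not stated. The submitters' processing notes list STAR and DESeq2 1.28.1. Estimated counts were rounded and tested with edgeR 4.0.16 (limma 3.58.1, R 4.3.3) using filterByExpr, TMM scaling, robust dispersions and 1 coefficient per group over all 8 libraries (4 residual degrees of freedom). The SE is the log2 fold change divided by the root of the F statistic. The fit was also run on simulated data with changes above 2-fold, larger than those of the 5 genes. That run says nothing about their passes. The 5 genes and all lists were chosen with earlier results of these data known. All 5 were named in every comparison. The gene most like each gene was to be named by its r over vst values, and 2 IDs were printed. Other pathway genes and cell type markers had been listed by symbol, but the tables and RefSeq's gene table do not pair symbols with Ensembl IDs (0 matched), so they were not analysed here and the labelled cell types were not checked against markers. Alternatives were DESeq2 1.42.0, other scalings, filters, thresholds and groups in the fit, the whole-number counts, length offsets, limma on vst values, a replicate block and leaving out each library. Scaling to Gapdh was added after seeing the data. Each group has 2 libraries, which limits the precision of every SD given. Figures used matplotlib 3.10.9.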

Additional observations from a re-analysis of the deposited data

How the results depend on the processing

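Over the alternatives listed from the start, 4 of 630 values of single genes changed direction, namely Slc2a1 at 2 µA against MFs without 2 µA replicate 1 (-0.01) and Gapdh, Ldha and Pkm between the densities without 2 µA replicate 2 (0.04, 0.004 and 0.10). These 4 passed under neither setting. Of the 630, 44 lost a pass, 21 gained one and 565 stayed on their side of the threshold, the 4 included. With an adjusted p below 0.05 alone in place of the study's call, the number of the 5 genes called became 2 between MFs and CFs, 1 at 1 µA and 2 for both densities against MFs, and 3 at 1 µA and 2 at 2 µA against CFs. Without 1 library in turn, 0 to 1 were called at 2 µA against CFs.

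The number at an adjusted p below 0.05 was 2 between MFs and CFs, and it became 3 with DESeq2, 1 with only those groups in the fit, 1 at an adjusted p below 0.01, and 0 to 2 without 1 library in turn. For 1 µA against MFs it was 1, and it became 3 with DESeq2, 4 with only those groups in the fit, 0 with no filter, 0 in the whole-number counts, 0 at an adjusted p below 0.01, and 0 to 1 without 1 library. For 2 µA against MFs it was 0, and it became 2 with DESeq2, 1 with upper quartile scaling, 1 with only those groups, and 0 to 1 without 1 library. For both densities against MFs it was 2, and it became 3 with DESeq2, with upper quartile scaling and with only those groups, 1 with no filter, 0 at an adjusted p below 0.01, and 0 to 3 without 1 library, and in the whole-number counts it stayed at 2 with Hk2 in place of Pkm. For 1 µA against CFs it was 3, and it became 1 at an adjusted p below 0.01 and 0 to 3 without 1 library. For 2 µA against CFs it was 2, and it became 0 with only those groups, 0 at an adjusted p below 0.01, and 0 to 3 without 1 library. Against CFs, Ldha lost its pass at 1 µA with only those groups in the edgeR fit (adjusted p = 0.0737). At 2 µA against CFs, Ldha gained a pass with DESeq2 (adjusted p = 0.0022). The number of all genes passing moved as well, at 1 µA against MFs from 968 to 1915 with DESeq2 and 3363 with only those groups. At 2 µA against CFs it fell from 987 to 2 with only those groups. It also fell in each comparison with MFs when an MF library was left out. The cause of these moves was not tested. Where 1 library was left out, the lone library of that group was assumed to vary like the other groups.

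Same-numbered libraries did not deviate together throughout (r from -0.20 to 0.36 over 1000 genes, 6 pairs of groups), so they were taken to share only a number. With a replicate block, the number of genes at an adjusted p below 0.05 became 0 for 1 µA against MFs, where Gapdh lost its pass (adjusted p = 0.0714), and 1 for both densities against MFs, where Pkm did (0.0736), and the other counts kept their values. Scaling to Gapdh, chosen after seeing the data, fixes Gapdh at 0. It changed the direction of 13 values, which were the other 4 genes at 1 µA, at 2 µA and for both densities against MFs, and Pkm between the densities (0.002). It turned Slc2a1 to -0.45 at 1 µA, -0.51 at 2 µA and -0.48 for both densities against MFs, Ldha to -0.14, -0.21 and -0.17, Hk2 to -0.18, -0.27 and -0.22, and Pkm to -0.09 at each density and -0.093 for both, a value that had passed as a rise. The passes against CFs that it ended are given with each gene.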

Other observations

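Scaling every library to Gapdh moved the median log2 fold change of all 13849 genes tested to -0.61 at 1 µA, -0.54 at 2 µA and -0.58 for both densities against MFs, and to 0.19 between MFs and CFs. The number of genes at an adjusted p below 0.05 from edgeR went from 968 to 7295 at 1 µA, from 1097 to 6010 at 2 µA and from 2077 to 8339 for both densities against MFs, and from 2560 to 1762 between MFs and CFs.

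The 2 count tables gave Gapdh, Pkm and Hk2 different shares of a library. The whole-number count was 1.46 to 1.51 times the estimated count for Gapdh and 0.460 to 0.510 times for Hk2, while the totals of the libraries stood at 0.704 to 0.737. The range for Pkm was 1.07 to 1.144, for Ldha 0.667 to 0.681 and for Slc2a1 0.707 to 0.755. These ranges did not overlap between genes. Within a gene the ratio was not constant, and for Hk2 it was lowest in MF replicate 2 and highest in 2 µA replicate 2.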
